A study of Mus musculus with 12 samples.

Results

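The endothelial libraries whose embryo labels begin with the letter J were compared with those beginning with K or L. Of the 12 RNA-seq libraries of the study, 8 entered the comparison, 4 on each side. They were the wild-type libraries JE1 and JE6 and the Gpr124ΔC/ΔC libraries JE3 and JE4 against the wild-type KE8 and LE6 and the Gpr124ΔC/ΔC LE2 and LE5. Each library came from 1 embryo at stage E15.5, from forebrain cells sorted for the endothelial surface protein CD31 and against CD140b, CD45 and a dead-cell dye. Gpr124ΔC/ΔC embryos are homozygous for an edited *Gpr124* allele in which a V5 tag and a stop codon follow the transmembrane part of the receptor, so that its cytoplasmic tail is missing. The 4 remaining libraries, KE4, ME1, ME4 and ME5, carry the Gpr124-/- allele, have no counterpart with letter J, and were outside the fit. The meaning of the letters is not given in the sources used here. The K and L side holds 1 K library and 3 L libraries, so a difference between K and L could not be separated within it. All embryos carry the same stage label.

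Gpr124 acts with Reck to carry WNT7 signals into the endothelium of the forebrain, and this signal drives both the ingrowth of vessels and the onset of the blood-brain barrier. As brain vessels mature, the fenestral diaphragm protein Plvap is lost while tight junction proteins and nutrient transporters accumulate, and the sprouting program led by tip cells declines. In circulating erythroid cells, embryonic globins give way to adult ones over the same days of gestation. The question was whether angiogenic and maturation genes differ between the letters as they do between stages.

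Of 17098 genes with enough counts, 1703 (9.96%) were higher in the J libraries at an adjusted p under 0.05 and 555 (3.25%) were lower, by edgeR's quasi-likelihood test with genotype as a second term and Benjamini-Hochberg adjustment. With the added limit of a log2 fold change beyond 1, 869 genes (5.08%) were higher and 28 (0.164%) were lower. The rises were large, with a median log2 fold change of 1.02 over the 1703 genes, and the falls were small, with a median of -0.38 over the 555. The number of falls moved with the scaling, since upper-quartile factors gave 1570 rises and 1462 falls, a share of 51.8% higher against 75.4%. It also moved with single libraries and fell to 156 without LE2, 200 without LE5, 259 without JE6 and 308 without JE3.

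The genes that rose shared a sequence property. For each gene, the GC content of the richest 100-base window of its longest annotated transcript was computed from GENCODE vM21. Of the 1703 genes that rose, 1402 (82.3%) held a window of at least 80% GC, as did 3493 of all genes tested. Put the other way, 40.1% of the genes with such a window were higher in J and 1.15% lower, against 2.17% and 3.80% of the genes without one. The following are the 30 bases of coding sequence with most G and C inside that window, 5′ to 3′, with G and C in capitals, on GRCm38. They are shown for 6 genes that rose strongly and for 3 vascular genes that did not pass the test.
Tbx1 (chr16:18586743-18586772, minus strand): CCCCGGtGCCCCGGGCCCGCCGCCGCCGCG
Foxq1 (chr13:31559613-31559642, plus strand): GCCGGGaCCCCGCaGCCCGCGCCCGCCGCC
Smad6 (chr9:64020814-64020843, minus strand): CGGtaGCCCCGCGGCGGCCCCGGGaCGCGG
Igfbp7 (chr5:77407793-77407822, minus strand): CGCGGCGaGGGtGaGCCGtGCGGGGGCGGC
Plvap (chr8:71507803-71507832, minus strand): GGCGGCGCaGGaGGCGCGGGCGCGCGCCGG
Sox17 (chr1:4492002-4492031, minus strand): GCCGCtGCaaCCGCaGGCaCCGCCGCCGCC
Cldn5 (chr16:18777475-18777504, plus strand): GGGCGCGGCGCtGtaCatCGGCtGGGCGGC
Mfsd2a (chr4:122960989-122961018, minus strand): GGCGCCGaGaGCGGttCCGCGGCGGGGCtG
Angpt2 (chr8:18741119-18741148, minus strand): CGttCCtGCtGCCGGaGaCCGaCaGCtGCC
The whole window reached 85% GC in *Tbx1*, *Foxq1* and *Smad6*, 82% in *Igfbp7*, 81% in *Plvap* and 79% in *Sox17*. It reached 76% in *Mfsd2a*, 75% in *Cldn5* and 64% in *Angpt2*.

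The share of genes that rose changed steeply with this window. Among genes whose richest window lay between 75% and 80% GC, 106 of 2832 (3.74%) were higher in J. Between 80% and 85% GC they were 723 of 2241 (32.3%), between 85% and 90% GC 612 of 1070 (57.2%), and from 90% upward 67 of 182 (36.8%). Below 75% GC the share lay between 1.44% and 2.19%. The median log2 fold change was 0.74 in the bin from 85% to 90% GC, and it was 0.73 within the wild-type pairs and 0.75 within the Gpr124ΔC/ΔC pairs, while every bin below 80% had a median between -0.07 and 0.06. The same bin had a median of -0.08 for Gpr124ΔC/ΔC against wild type in the same fit. The GC content of the whole transcript was less distinct, with a median of 51.8% in the genes that rose and 49.7% in all genes tested. Of the 1252 genes with a window of at least 85% GC, 1218 had it in the first of 3 equal parts of the transcript, and 54.3% of these were higher in J. In the middle part 10 of 22 were higher and in the last part 8 of 12. The limit of 80% was chosen after these values were seen, so the relation is a description with no test.

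**Figure D1:**
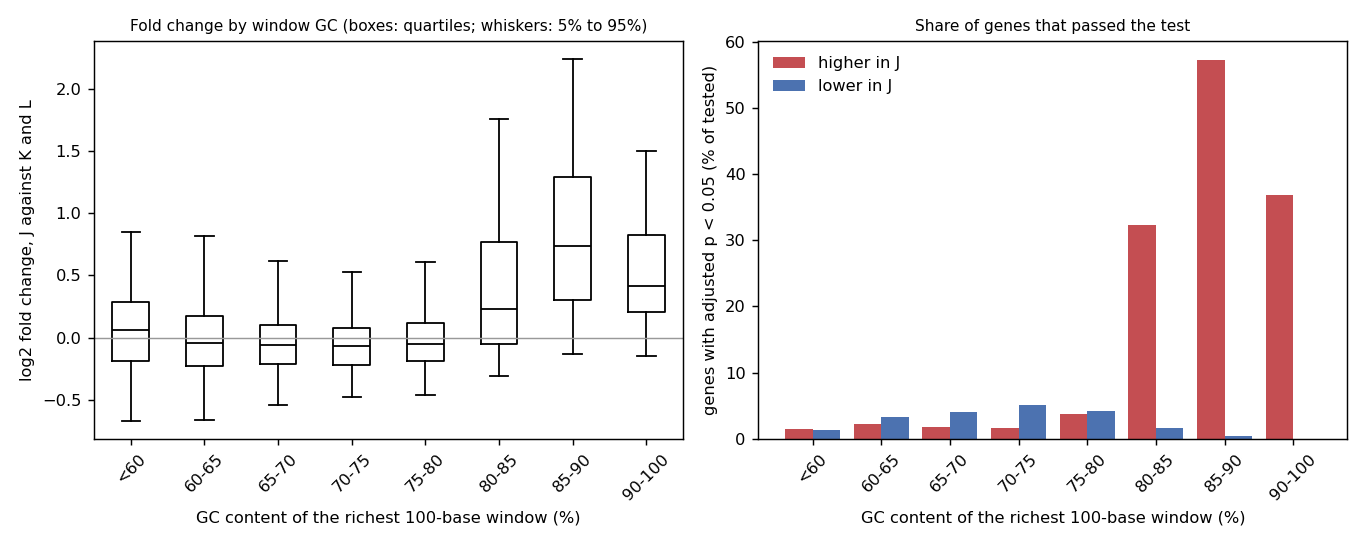
Left, log2 fold change of J against K and L (vertical axis) by the GC content of the richest 100-base window (horizontal axis, percent), with boxes for the quartiles, a line for the median and whiskers from 5% to 95% of genes. Right, the percentage of tested genes in each bin with an adjusted p under 0.05, higher in J in red and lower in J in blue, which for rises goes from 3.74% in the bin from 75% to 80% to 57.2% in the bin from 85% to 90%.

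Each library's share of counts on the genes with such a window followed the letters. It was 22.9% in JE1, 23.2% in JE6, 23.5% in JE3 and 21.8% in JE4, and it lay between 17.9% (LE2) and 18.9% (LE6) in the 4 K and L libraries. All 4 J libraries lay above all 4 K and L libraries, and JE4 was the lowest of the J side. In the Gpr124-/- libraries the share was 20.8% in KE4, 22.2% in ME1, 23.5% in ME4 and 22.9% in ME5. KE4 thus stood between the sides and above KE8, which shares its letter, and the M libraries stood with the J libraries. Of the 869 genes that rose beyond a log2 fold change of 1, 585 (67.3%) had their lowest J value in JE4, against 25.0% of all genes. Genotype and letter cannot be told apart in the M libraries.

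**Figure D2:**
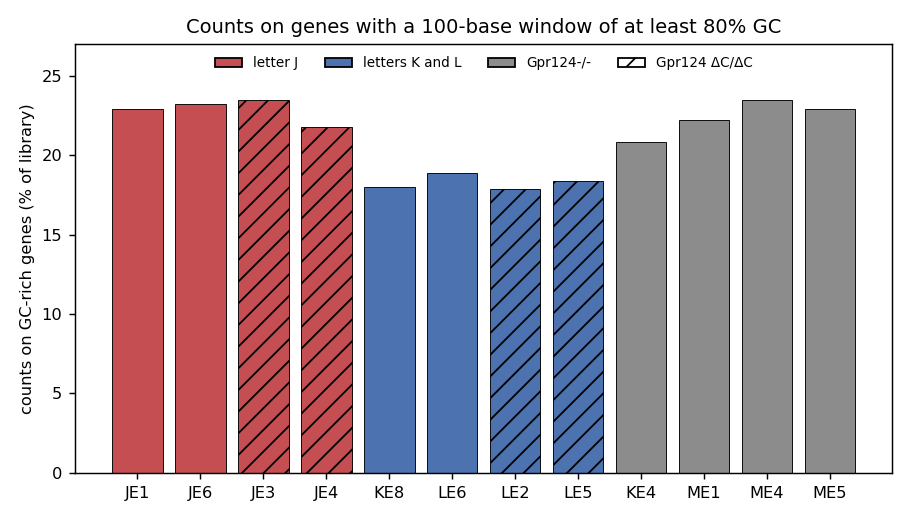
Percentage of each library's counts (vertical axis) that fell on genes with a 100-base window of at least 80% GC, for the 12 libraries (horizontal axis), with letter J in red, K and L in blue, Gpr124-/- in grey and hatching for Gpr124ΔC/ΔC. The J libraries lie between 21.8% and 23.5% and the K and L libraries between 17.9% and 18.9%.

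When the 13558 genes without such a window were fitted alone, 182 were higher in J and 88 were lower. Beyond a log2 fold change of 1 these were 90 and 6. In the fit of all genes, 294 of the same 13558 were higher and 515 lower. Calls were thus also lost among genes that both fits share, for a reason that was not tested. When all genes were kept and each library was given an offset for window GC, 1065 genes were higher and 889 lower. The offset was the median deviation of log2 CPM in each of 20 window-GC bins of these same libraries. It thus removes the median shift of each bin by construction, and values with it are no independent check. Both fits were chosen after the data were seen. On log2 CPM (counts per library size after TMM scaling) of all genes tested, 2 libraries of the same genotype and side were 75.7 ± 6.67 apart (SD over 4 pairs), libraries of the same genotype on different sides 94.9 ± 10.6 (8 pairs) and libraries of the same side but different genotype 86.3 ± 5.73 (8 pairs). Without the genes holding a window of 80% GC, these distances were 68.8 ± 5.48, 74.9 ± 7.68 and 78.1 ± 5.67. The distance between sides thus exceeded that between genotypes over all genes and was below it without the GC-rich genes. Pairs share libraries, so no test was made. The first principal component of all genes, with 34.4% of the variance, held all J libraries at 15.6 or above and all K and L libraries at -22.6 or below, and the second, with 21.6%, held the genotypes apart. Without the GC-rich genes the first component, with 25.3%, held the genotypes apart, and the second, with 22.5%, still held the letters apart, with the J libraries at -0.569 (JE4) or above and the K and L libraries at -4.99 (LE6) or below.

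**Figure D3:**
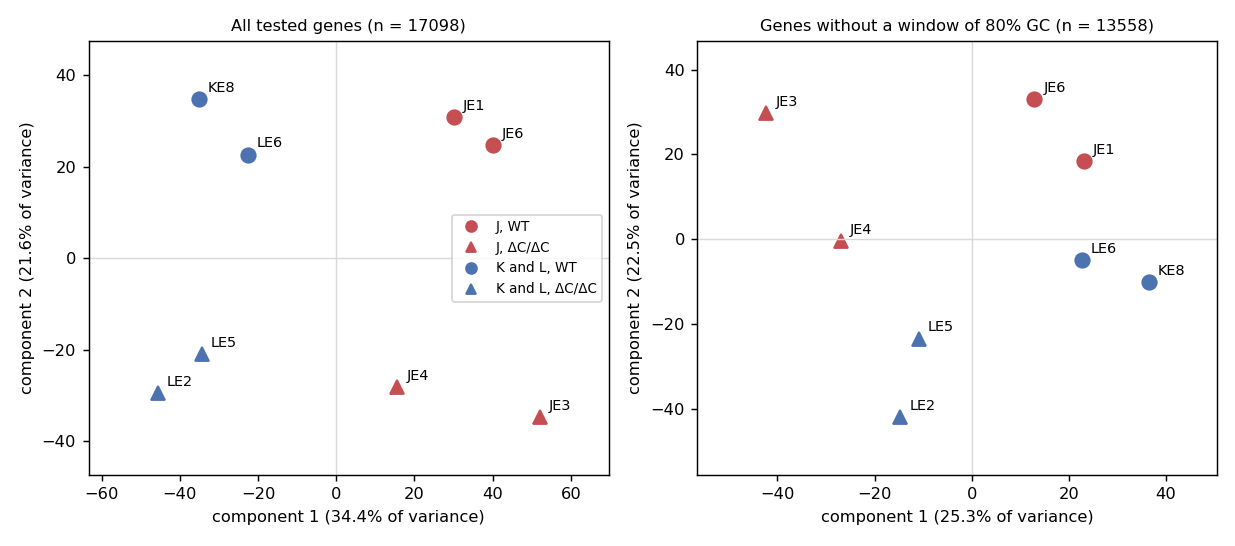
First against second principal component of log2 CPM in the 8 libraries, over the 17098 genes tested (left) and over the 13558 genes without a window of 80% GC (right), with letter J in red, K and L in blue, circles for wild type and triangles for Gpr124ΔC/ΔC. The first component holds the letters apart on the left (34.4% of the variance) and the genotypes apart on the right (25.3%), where the second component (22.5%) still holds the letters apart.

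Where the sides did not overlap and the mean reached 8 CPM, *Tbx1* rose most. *Tbx1*, a T-box factor of pharyngeal and vascular development, had 72.4 CPM in JE1, 69.9 in JE6, 75.9 in JE3 and 26.4 in JE4, and 3.40 in KE8, 4.10 in LE6, 2.39 in LE2 and 2.34 in LE5. The groups were far apart, with a log2 fold change of 4.33 (standard error 0.30, adjusted p = 3.29e-06, edgeR). *Tcf15*, a bHLH factor of endothelial cells, had between 14.6 and 26.0 CPM in the J libraries and between 0.615 and 1.44 in the others (log2 fold change 4.26, standard error 0.29). The AP-1 subunit *Jund* (3.76), the HMG-box factor *Sox4* (3.33) and the orphan nuclear receptor *Nr2f6* (2.81) were further transcription factors among the 15 largest rises. Others of the 15 largest rises encode enzymes or factors of RNA metabolism and protein modification, such as *Alyref*, an adaptor of mRNA export with between 49.7 and 165 CPM in J and between 13.3 and 14.9 in K and L, *Yrdc* (3.44), of tRNA modification, *Lipt2* (2.84), a lipoyl transferase, and *Rnf187* (2.78), a RING finger protein. The remaining ones were *Zfp771* (3.58), *Fam171a2* (3.47), *Smad6* (3.25), *Nrarp* (3.05), *Mir6236* (2.90) and *Nsmce4a* (2.85). Of these 15 genes, 14 held a window of at least 80% GC, and *Mir6236* (66%) did not. The lysosomal membrane protein gene *Lamp1*, named after its values were seen, went from between 62.1 and 82.1 CPM in the K and L libraries to between 282 and 600 in the J libraries.

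Over all genes tested the CPM of the sides did not overlap for 10.6% higher in J and 4.94% lower. With a mean of at least 8 CPM and a log2 fold change beyond -1 there were 5 falls without overlap, against 543 rises by the same rule. *Atp6v0c*, a subunit of the vacuolar proton pump, had 17.1, 13.7, 34.8 and 11.9 CPM in JE1, JE6, JE3 and JE4, and 71.6, 45.6, 38.2 and 38.9 in KE8, LE6, LE2 and LE5 (log2 fold change -1.33, standard error 0.33, adjusted p = 0.0213, edgeR). *Dusp27*, a phosphatase-like gene, fell by 1.45 on the log2 scale, the pseudogene *5830417I10Rik* by 1.21 and *Sft2d2* by 1.01. *Tmem181a* fell by 1.43, but it has a near-identical copy in the genome and its count is uncertain. Of the 28 genes that fell beyond 1, 3 held a window of 80% GC.

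**Figure D4:**
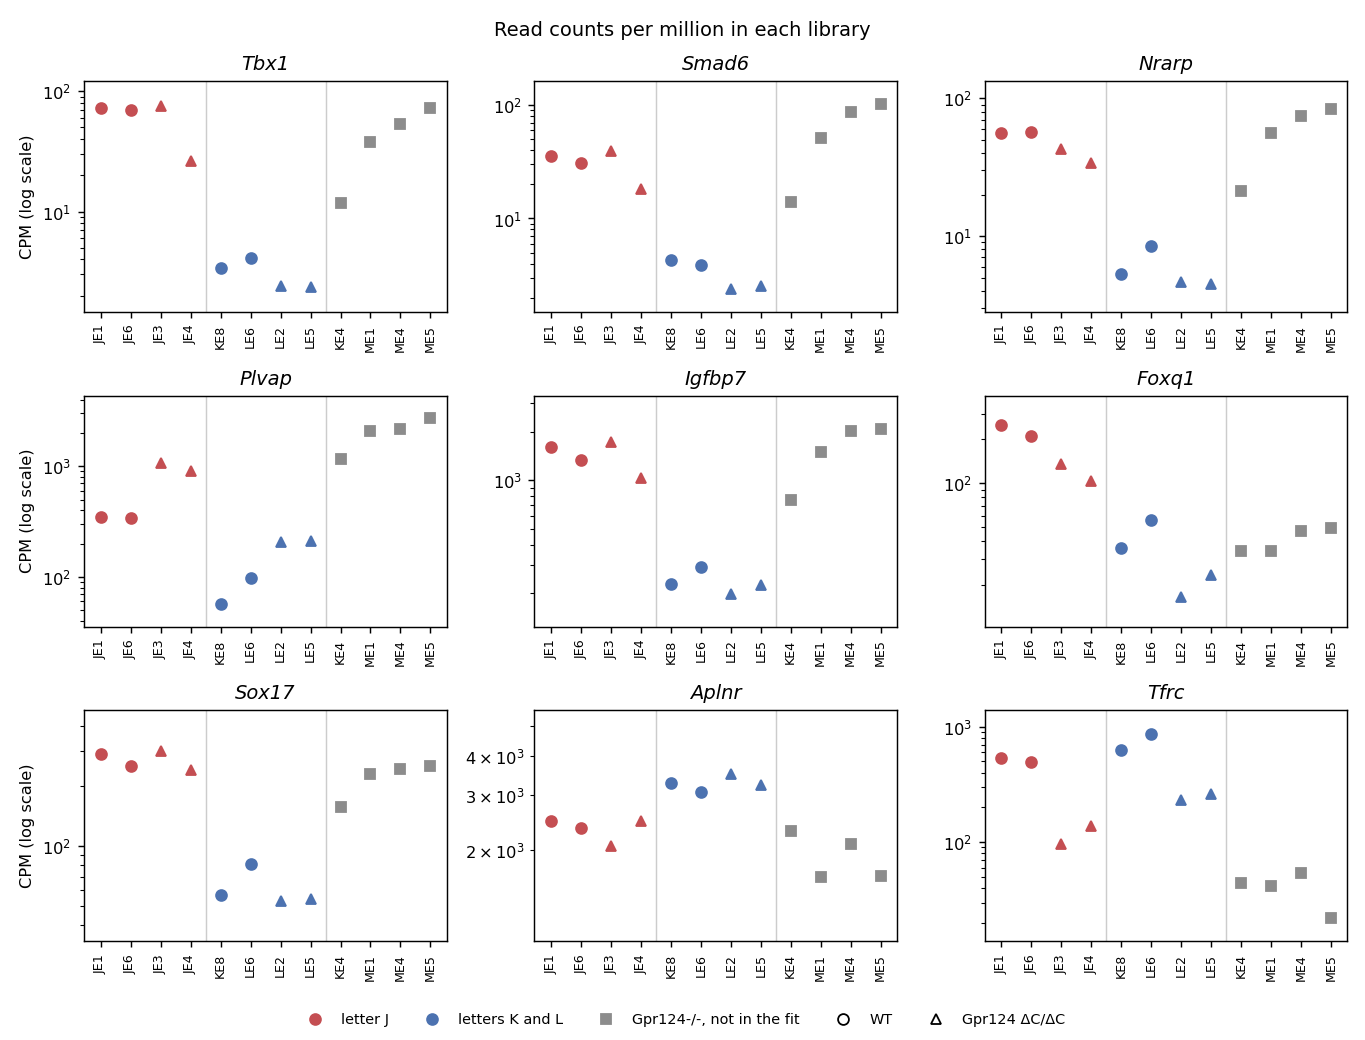
CPM (vertical axes, log scale) of 9 genes in each of the 12 libraries (horizontal axes), with letter J in red, K and L in blue, Gpr124-/- libraries, which were not in the fit, in grey, circles for wild type and triangles for Gpr124ΔC/ΔC. *Tbx1*, *Smad6*, *Nrarp*, *Plvap*, *Igfbp7*, *Foxq1* and *Sox17* lie higher in J in both genotypes, *Aplnr* lies lower, and *Tfrc* is lower in J within each genotype by less than the genotypes differ.

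Of 40 genes of angiogenic sprouting and tip cells, all were tested, 8 were higher in J, 2 were lower and 30 did not pass, beside 9.96% higher and 3.25% lower over all genes. Of the 40, 10 hold a window of at least 80% GC, among which 40.1% of all genes were higher. The median log2 fold change of the list was -0.00, as over all genes tested. *Plvap*, the protein of fenestral diaphragms that brain vessels lose as they mature, rose most. It had 347 CPM in JE1 and 338 in JE6 against 56.7 in KE8 and 98.5 in LE6 among wild types, and 1066 in JE3 and 914 in JE4 against 208 in LE2 and 211 in LE5 among Gpr124ΔC/ΔC libraries. The sides did not overlap within either genotype, and the log2 fold change was 2.19 (standard error 0.14, adjusted p = 2.70e-06, edgeR). *Plvap* was also higher in Gpr124ΔC/ΔC than in wild-type libraries of the same side, and LE2 and LE5 stood nearest to the wild-type J libraries.

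The other genes of the list that rose did so less. *Igfbp3*, an IGF-binding protein, had between 314 and 647 CPM in J and between 105 and 179 in K and L (log2 fold change 1.58, standard error 0.16). *Pdgfb*, the tip cell ligand that recruits pericytes, had between 141 and 233 CPM in J and between 82.1 and 98.2 in K and L (1.15, standard error 0.12). *Apln* (0.79), *Unc5b* (0.66) and *Vegfa* (0.87, at 2.53 to 6.02 CPM) also passed. These genes and *Plvap* all hold a window of at least 80% GC. The remaining rises, of *Esm1* (0.38, adjusted p = 0.0494, edgeR) and *Kcne3* (0.35), have windows of 65% and 61% and were small beside the difference between genotypes. *Esm1*, a tip cell marker, had 75.2 and 65.8 CPM in JE3 and JE4 against 56.7 and 47.4 in LE2 and LE5. It had 19.4 and 16.4 CPM in the wild-type J libraries against 12.7 and 16.1 in KE8 and LE6, so that JE6 and LE6 hardly differed.

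The 2 genes that fell are receptors. *Aplnr*, the receptor of apelin and a marker of sprouting veins, had 2477, 2350, 2054 and 2483 CPM in JE1, JE6, JE3 and JE4 and 3273, 3071, 3497 and 3230 in KE8, LE6, LE2 and LE5, with no overlap (log2 fold change -0.48, standard error 0.08, adjusted p = 0.00197, edgeR). The angiopoietin receptor *Tek* fell by 0.33. *Apln* and its receptor therefore moved in opposite directions. Central sprouting genes did not pass the test. *Angpt2*, a tip cell ligand, had a log2 fold change of 0.02 (standard error 0.13), the chemokine receptor *Cxcr4* 0.27 (0.24), the Notch ligand *Dll4* -0.28 (0.13), the VEGF receptors *Kdr* -0.31 (0.09), *Flt1* -0.13 (0.08) and *Flt4* -0.19 (0.10), and the co-receptor *Nrp1* -0.23 (0.10). The 30 genes that did not pass ranged from -1.41 for *Angpt1*, at no more than 2.28 CPM, to 0.68 for *Pgf*. The count of the list was not stable. It ranged over the 19 settings that took no account of GC from 3 to 10 rises and from 0 to 10 falls, and in the fit without GC-rich genes 1 of 30 members was higher (*Kcne3*) and 1 lower (*Aplnr*). The list had 7 rises and 5 falls with the GC offset. Without JE3 or LE5 it had 5 rises, and without KE8 it had 6 falls.

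Among genes of barrier maturation, 39 of 40 were tested, and 5 were higher in J, 7 lower and 27 did not pass, beside 9.96% higher and 3.25% lower over all genes, with a median log2 fold change of -0.24. The rises were large and the falls small. *Igfbp7*, a matrix protein of brain vessels, had 1604, 1342, 1723 and 1035 CPM in JE1, JE6, JE3 and JE4 against 227, 289, 199 and 225 in KE8, LE6, LE2 and LE5, a log2 fold change of 2.61 (standard error 0.16, adjusted p = 2.22e-06, edgeR). *Foxq1*, a forkhead factor of brain endothelium that depends on WNT signals, had 249 and 209 CPM in the wild-type J libraries and 136 and 104 in JE3 and JE4, against 36.1, 55.5, 16.6 and 23.6 in KE8, LE6, LE2 and LE5 (2.44, standard error 0.16). *Sox17*, an arterial and barrier factor, had between 240 and 300 CPM in J and between 53.1 and 81.0 in K and L (2.15, standard error 0.13). *Slc7a5*, the large neutral amino acid carrier (1.45), and the forkhead factor *Foxf2* (0.92) completed the rises. Of these 5, *Sox17* was the one without a window of 80% GC, and it remained higher in the fit without GC-rich genes (adjusted p = 7.86e-06, edgeR).

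The 7 barrier genes that fell include transporters and junction proteins. *Tfrc*, the transferrin receptor, fell most, from 622 and 867 CPM in KE8 and LE6 to 539 and 492 in JE1 and JE6, and from 234 and 263 in LE2 and LE5 to 95.6 and 139 in JE3 and JE4 (log2 fold change -0.80, standard error 0.15, adjusted p = 0.00479, edgeR). It lay lower in J within each genotype, and the wild-type J libraries stood above LE2 and LE5. *Ocln*, the tight junction protein occludin, fell by 0.46 on the log2 scale, the junction scaffold *Tjp1* by 0.41, *Palmd* by 0.41, the organic anion carrier *Slco2b1* by 0.38, the organic anion transporter *Slc22a8* by 0.30 and the efflux pump *Abcb1a* by 0.29. Of the 7, *Tjp1* holds a window of 80% GC. Without the GC-rich genes *Tfrc* was the only one of 32 members lower at an adjusted p under 0.05 (0.0245, edgeR). The median log2 fold change of these 32 was -0.28 in the fit of all genes and -0.24 in the fit without GC-rich genes. Why the other calls were lost was not tested. Other junction and transporter genes did not pass the test. *Cldn5*, the main claudin of the barrier, had a log2 fold change of -0.22 (standard error 0.09, adjusted p = 0.146, edgeR), the lipid transporter *Mfsd2a* of -0.35 (0.16, adjusted p = 0.202) and the glucose carrier *Slc2a1* of -0.13 (0.11, adjusted p = 0.491). Over the 19 settings that took no account of GC the list had 5 rises in each, and its falls ranged from 1 to 20, with 3 without JE6 or LE5 and 4 without LE2. With the GC offset it had 4 rises and 5 falls.

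Of 18 tested WNT targets and pathway genes, 6 were higher in J and 2 lower, beside 9.96% and 3.25% of all genes. Of the 18, 10 are GC-rich, and 4 of the 6 rises fell among these 10, beside 40.1% of all GC-rich genes. Over the 19 settings that took no account of GC the count lay between 2 and 7 higher and between 0 and 3 lower, with 2 and 0 when the genotype term was left out. It was 4 higher and 4 lower with the GC offset and 2 and 2 in the fit without GC-rich genes. *Apcdd1*, a WNT inhibitor induced by the pathway, had 890 and 1019 CPM in JE1 and JE6 against 323 and 303 in KE8 and LE6, and 392 and 149 in JE3 and JE4 against 100 and 131 in LE2 and LE5 (log2 fold change 1.42, standard error 0.24, adjusted p = 0.00188, edgeR). *Nkd1*, another feedback inhibitor, rose by 1.19, the co-receptors *Lrp5* by 1.45 and *Lrp6* by 0.45, the transcription factor *Tcf7* by 0.98, and *Gpr124* itself, listed as *Adgra2*, by 0.81. The receptors *Fzd4* (-0.38) and *Tnfrsf19* (-0.41) fell. *Nkd1* and *Tcf7* have windows of 75% and 70% GC, and their values with the GC offset were 1.26 and 1.05. *Axin2*, the most general target of the pathway, had a log2 fold change of -0.03 (standard error 0.16) and *Lef1* of 0.10 (0.07), and neither passed. With the GC offset *Lrp6* turned to -0.19, and *Adgra2*, the targeted gene, was at 0.10 (adjusted p = 0.648, edgeR). In CPM, *Adgra2* had 89.0 in JE1 and 117 in JE6 against 56.1 in KE8 and 62.0 in LE6, and 145 in JE3 and 78.6 in JE4 against 61.9 in LE2 and 65.5 in LE5. It was expressed in the Gpr124ΔC/ΔC libraries, whose edit leaves the transcript in place, and reached no more than 12.4 CPM in the Gpr124-/- libraries.

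**Figure D5:**
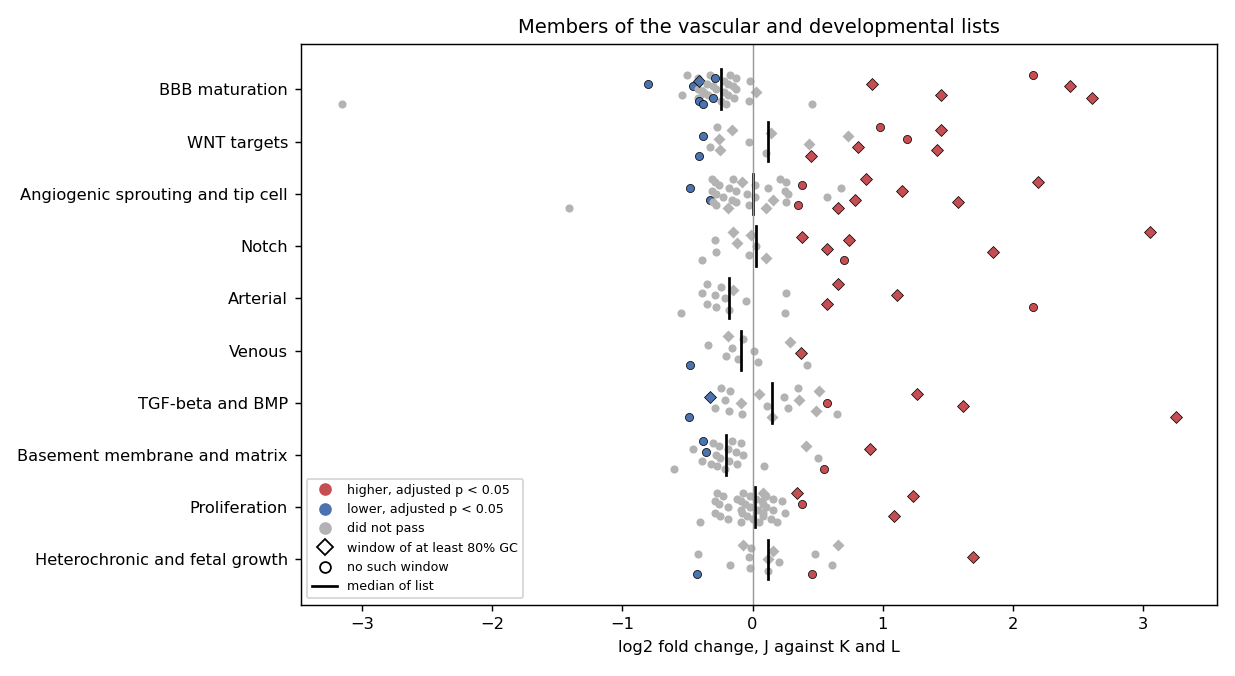
Log2 fold change of J against K and L (horizontal axis) for each tested member of 10 lists (rows), red where higher and blue where lower at an adjusted p under 0.05, grey where it did not pass, with diamonds for genes with a window of at least 80% GC and a bar for the list's median. Most red points are diamonds, and the medians lie between -0.24 (BBB maturation) and 0.15 (TGF-beta and BMP).

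In the Notch pathway 6 of 15 tested genes were higher and none was lower, beside 9.96% and 3.25% of all genes. The rises were 4 without JE6 or LE6, 3 without JE3 or LE2, 2 by limma on log2(TPM + 1) and 3 with the GC offset, and KE8 left out gave 1 fall. With 9 of the 15 GC-rich, 5 of the 6 rises fell among these 9, beside 40.1% of all GC-rich genes. *Nrarp*, a feedback inhibitor of Notch signaling, had between 34.1 and 57.1 CPM in J and between 4.49 and 8.46 in K and L (log2 fold change 3.05). *Notch4*, the endothelial Notch receptor, rose by 1.85, the ligands *Jag1* and *Jag2* by 0.57 and 0.38, the target *Hes1* by 0.74 and the glycosyltransferase *Lfng* by 0.70. All but *Lfng* hold a window of 80% GC, and in the fit without GC-rich genes none of the 6 members left passed. With the GC offset *Jag1* turned to -0.13 and *Jag2* to -0.23. Of 17 arterial genes 4 were higher (9.96% of all genes), *Sox17*, *Efnb2* (1.11), *Jag1* and *Unc5b*, all but *Sox17* GC-rich, and with the GC offset 1 was higher and 1 lower. Without KE8, 2 arterial genes were lower. Of 12 venous genes *Ephb4* (0.37, -0.00 with the GC offset) was higher and *Aplnr* lower. Over the 19 settings that took no account of GC the venous list had 0 to 2 rises and 0 to 2 falls, with 2 rises without KE8. With the GC offset it had 0 rises and 2 falls.

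Of 23 tested genes of TGF-beta and BMP signaling, 4 were higher and 2 lower, beside 9.96% and 3.25% of all genes. Of the 23, 10 are GC-rich, and 3 of the 4 rises fell among these 10, beside 40.1% of all GC-rich genes. In the fit without GC-rich genes 1 was higher and 1 lower. With the GC offset 4 were higher and 3 lower, and without JE1, LE2 or LE5 1 was lower. The inhibitory Smad genes *Smad6* (3.25) and *Smad7* (1.62) and the BMP effector *Smad1* (1.26) hold GC-rich windows. *Ltbp4*, a latent TGF-beta binding protein with a window of 76%, had between 70.7 and 85.6 CPM in K and L and up to 142 in J, with no overlap (0.57, standard error 0.08). The receptors *Tgfbr2* (-0.33) and *Tgfbr3* (-0.49) fell. In the basement membrane 2 of 24 genes rose, *Lamc1* (0.90) and *Agrn* (0.55, at 71% window GC), and 2 fell, *Lama4* (-0.38) and *Lamb2* (-0.36), again beside 9.96% and 3.25% of all genes. The number of falls was not stable, with none without JE6, LE6, LE2 or LE5, 1 without JE3, 7 without KE8, 8 by DESeq2 and 9 with upper-quartile factors.

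Genes of the immediate early response, which also answer to tissue dissociation and blood flow, counted 8 of 27 higher and 2 lower, beside 9.96% and 3.25% of all genes tested. Of the 27, 6 hold a window of at least 80% GC. *Klf2*, the flow-responsive factor of endothelium, had 324, 293, 287 and 138 CPM in JE1, JE6, JE3 and JE4 and 43.2, 71.0, 38.5 and 45.2 in KE8, LE6, LE2 and LE5 (log2 fold change 2.39, standard error 0.22, adjusted p = 2.02e-05, edgeR). *Jund* (3.76), the GTPase *Rhob* (1.72), the phosphatase *Dusp1* (1.12) and *Klf4* (0.72) also hold windows of at least 80% GC. The AP-1 genes *Fos* (0.55), *Fosb* (1.11) and *Jun* (0.50) do not, and they were the 3 members that rose in the fit without GC-rich genes. *Fos* had between 93.3 and 118 CPM in J and between 61.4 and 85.9 in K and L, with no overlap. *Myc* (-0.38) and the chaperone gene *Hspa8* (-0.36) fell. The counts with the GC offset were 7 higher and 2 lower, and the falls were 4 without KE8 and 1 without JE1, JE6, LE2 or LE5.

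Measures of stage outside the endothelial program were taken from globins, proliferation and heterochronic genes. Embryonic globins made up 4.88% of globin counts in JE1, 8.18% in JE6, 9.18% in JE3 and 2.80% in JE4, and 2.73% in KE8, 5.62% in LE6, 2.03% in LE2 and 7.34% in LE5. The sides overlapped, with means of 6.26% ± 2.95 (SD, n = 4) in J and 4.43% ± 2.49 (SD, n = 4) in K and L, and the exact two-sided permutation test within genotype gave p = 0.333 over 36 orders, of which the smallest possible is 0.0556. The fit found 2 of the 4 adult globin genes higher in J, *Hba-a1* (0.46) and *Hbb-bt* (0.58), and none of the 3 embryonic ones, whose median log2 fold change was 1.03 (0.59 without JE3 and 1.61 without LE5). Of the embryonic ones, 1 was higher without JE4 or LE5 and 2 with no filter on low counts. The adult count was 3 by DESeq2, 4 with no filter on low counts and without KE8, 1 without JE6, JE4 or LE5, and 0 without JE1, JE3, LE6 or LE2, with all 12 libraries, with upper-quartile factors, with no genotype term and on TPM. Of 40 proliferation genes, 4 were higher and none lower, a share of rises near the 9.96% of all genes, with *E2f1* (1.23), *Ccne1* (1.09) and *Ccna2* (0.34) holding windows of at least 80% GC and *Cenpf* (0.38) without one, while *Mki67* (0.08, standard error 0.06) and *Top2a* (0.00, 0.08) did not pass. The proliferation genes counted 2 rises without JE1 or LE2 and 2 falls without LE6 or JE4. Of 16 heterochronic and fetal growth genes, the cell cycle inhibitor *Cdkn1c* (1.69, window 82%) and the fetal noncoding RNA *H19* (0.46) were higher and *Peg3* (-0.43) was lower, beside 9.96% higher and 3.25% lower over all genes. Of these, 1 was higher without JE6, LE6, LE2 or LE5, and none was lower without JE1, JE6, KE8, JE3 or LE2. *Lin28b*, whose decline marks developmental time, had between 9.26 and 12.4 CPM in J and between 10.9 and 12.6 in K and L (-0.17, standard error 0.14). *Igf2*, the fetal growth factor, was at 0.12 and did not pass, but its direction changed with the GC offset (-0.49).

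The sorted cells carried the markers of endothelium throughout, and the summed level of 16 endothelial markers was 17218 ± 1751 CPM in J and 19126 ± 1081 CPM in K and L (SD, n = 4 each; exact permutation p = 0.0556, 0.278 after adjustment over 15 values). *Tek* was the one of the 16 markers that passed, lower in J beside 3.25% of all genes, while *Pecam1* (-0.16) and *Cdh5* (0.24) did not. Without LE2 or LE5 none of the 16 endothelial markers passed. The markers of other cells lay far below this and overlapped between the sides when the genotypes were pooled: the summed level of neural progenitor markers was between 1605 and 1948 CPM in J and between 1520 and 1804 in K and L, that of neurons between 749 and 843 and between 702 and 873, that of pericytes between 43.8 and 77.4 and between 31.1 and 107, that of macrophages between 288 and 489 and between 332 and 554, and that of meningeal fibroblasts between 287 and 553 and between 176 and 329. Of their members, 2 of 18 progenitor, 4 of 25 neuron, none of 16 pericyte, none of 9 macrophage and 3 of 14 fibroblast genes were higher, beside 9.96% of all genes (the fibroblast genes *Igfbp2* by 2.16, *Foxc1* by 1.33 and *Fbln1* by 0.27), while *Aldh1a2*, at no more than 3.25 CPM, was lower. The progenitor count was 0 without JE1 or JE3 and 1 without JE6, LE6, KE8, LE2 or LE5. The neuron count was 2 without JE1, JE6 or JE3, and without KE8 6 neuron genes were lower. Fibroblast genes lower in J numbered 4 without LE6, 2 without LE5 and none without JE1, JE6 or KE8. Without KE8, 2 pericyte genes were higher. Of the 4 neuron genes, 3 are GC-rich, and no neuron or progenitor gene passed in the fit without GC-rich genes. Within each genotype the fibroblast and progenitor sums were higher in both J libraries than in both others (exact permutation p = 0.0556 for each, 0.278 after adjustment). Over the whole lists the median log2 fold change was -0.78 for fibroblast genes, with 11 of 14 below 0, -0.24 for neuron genes, with 17 of 25 below 0, and 0.18 for progenitor genes, so that the fibroblast sum and median differ in sign. These medians moved with single libraries, to -0.27 without KE8 for fibroblasts, to -0.53 without KE8, -0.01 without LE6 and -0.11 without LE2 for neurons, and to 0.29 without LE2 for progenitors. In bulk libraries, fewer cells of a type and less RNA per cell cannot be told apart. Erythroid (130 to 147 CPM against 120 to 151) and choroid plexus markers (601 to 1040 against 354 to 808) overlapped as well. The choroid plexus list nevertheless had a median log2 fold change of 1.40 (2.17 without KE8), with 7 of 8 members above 0. *Clic6* (1.09) passed, and 6 members passed without JE1 or without KE8 and none without JE6, JE3 or LE5. The part of these cells in the differences between the sides was not tested. *Xist* and the Y-linked *Ddx3y* marked JE1 as male on the J side and KE8 and LE2 on the other, and without chromosomes X and Y 1681 genes were higher and 552 lower.

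The libraries had between 13877572 and 22551163 counts, and the sides overlapped in total counts, with means of 17180010 in J and 17235848 in K and L, and in genes with at least 5 counts (18404 ± 475 against 18048 ± 465, SD, n = 4 each; exact permutation p = 0.333). JE6 and JE3 stood apart in *Gm23935*, *Mir6236* and *Lars2*. *Gm23935* had 2825 CPM in JE6 and 3183 in JE3 and between 219 and 506 in the other 6, and this short gene made up 12.5% and 14.1% of the deposited TPM of these libraries. The median log2 fold change of all genes was -0.15 on log2(TPM + 1) and -0.00 on counts, and the fold changes given here are from counts.

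The counts of the following lists stand beside 9.96% higher and 3.25% lower over all genes. In the integrated stress response 1 of 28 genes was higher, *Cebpb*, at no more than 0.0513 CPM in K and L. In hypoxia and glycolysis 3 of 36 were higher, *Mxi1* (1.13), *Vegfa* and *Egln1* (0.41, -0.21 with the GC offset), and *Kdm3a* (-0.34) was lower. The hypoxia rises were 1 without JE6 or JE3, and 3 genes were lower without JE1, KE8 or JE4 and none without LE5. In cholesterol synthesis 2 of 22 were lower (*Sc5d* by 0.66 and *Cyp51* by 0.37 on the log2 scale), and in the interferon response 2 of 25 (*Mx2* and *Gbp2*), with a median log2 fold change over the interferon list of -0.34, between -0.15 without LE2 (-0.20 without JE3) and -0.51 without JE4. The cholesterol falls were 4 without KE8 or JE4 and 1 without JE6, LE6, LE2 or LE5, and the interferon falls were 4 without JE4, 1 without JE6, LE6 or KE8 and none without JE1, JE3 or LE2. *H2-D1* (-0.92) was the one of 14 MHC class I genes lower in J, with none without JE6 and 2 without JE3. Of 15 platelet genes, the glycoprotein genes *Gp1bb* (3.33) and *Gp5* (2.23), both with GC-rich windows, were higher, and *Itgb3* (-0.70) and *P2ry12* (-0.66) lower, and the median of the list was -0.31, between -0.15 without LE6 and -0.49 without KE8. Of the platelet genes 4 were lower without KE8 and 1 without JE1, JE6, LE6, JE3, LE2 or LE5. None of the 6 sex-linked genes passed.

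Both genotypes showed the difference between letters. Within wild type 924 genes (5.40%) were higher in J and 42 (0.246%) lower, and within Gpr124ΔC/ΔC 1063 (6.22%) were higher and 218 (1.28%) lower. The test of the difference between these effects passed for 3 genes (0.0175%), *Rps3a2*, *Cd1d2* and *Tpm3-rs7*, and 677 genes had an unadjusted p under 0.05. DESeq2 passed 12 genes. *Rps3a2* had 26.8, 28.9, 31.2 and 29.7 CPM in JE1, JE6, JE3 and JE4, 15.4 and 14.9 in KE8 and LE6, and 1.97 and 2.03 in LE2 and LE5. The 3 genes have close copies in the genome, and whether reads were shared between copies was not tested, so their counts are uncertain. *Tpm3*, from which *Tpm3-rs7* derives, was highest where the copy was lowest, at 936 and 960 CPM in LE2 and LE5 against 403 to 734 elsewhere.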

How the data were processed

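RNA from sorted CD31+ forebrain cells of 1 embryo per library was amplified with SMART-Seq V4 and sequenced as paired reads on an Illumina HiSeq. The authors deposited gene counts and TPM for each library. Per the labels, reads were demultiplexed with bcl2fastq 2.17 and the build was mm10. The aligner, the counter and its strand setting are not given in the sources used here, so overlapping and antisense genes cannot be told apart.

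The counts of 8 libraries were fitted with edgeR 4.0.16 (R 4.3.3), with side and genotype as terms, after filterByExpr (minimum count 10, minimum total 15) and TMM scaling (factors 0.9633 to 1.0262). P-values were adjusted by Benjamini-Hochberg over 17098 genes. Fold changes are J minus K and L on the log2 scale, CPM are TMM-scaled, and the CPM of Gpr124-/- libraries carry no TMM factor. P-values measure the spread between these embryos. All J libraries share their letter, so a spread between letters is not measured. Values of whole libraries were tested by exact two-sided permutation within genotype. DESeq2 1.42.0, limma 3.58.1 on the deposited TPM, other scalings, filters and each library left out served as alternatives. Window GC was taken from the longest protein-coding (otherwise the longest) GENCODE vM21 transcript, with 17051 genes matched, and the offset used medians of 20 bins. The fit was tested on simulated counts with 200 changed genes.

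The comparison and the 28 gene lists were chosen with earlier results of these data known. Named by rule were up to 6 of the largest passed members of each list and direction, the 15 largest rises and falls beyond 1 with a mean of at least 8 CPM and no overlap, up to 5 genes of the interaction, *Adgra2* and the sex-linked genes. *Lamp1*, *Gm23935*, *Lars2*, *Tpm3*, *Ctse* and *Ptgds*, the further passed members *Esm1*, *Kcne3*, *Abcb1a*, *Fos* and *Jun*, and the list members named that did not pass were chosen after their values were seen.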

Additional observations from a re-analysis of the deposited data

Results flagged for a closer look

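In 84 groups of 4 libraries, 7 held a library far from the other 3, and chance flags about 1 in 20 such groups. On the J side, JE4 had 26.4 CPM of *Tbx1* against 69.9 to 75.9 in the others, and 9.68 CPM of *Zfp771* against 17.4 to 18.2. JE3 had 26.0 CPM of *Tcf15* against 14.6 to 16.4, and JE6 had 8.02 CPM of *5830417I10Rik* against 4.01 to 4.63. On the K and L side, LE6 had 25.2 CPM of *Sox4* against 14.3 to 16.1 and 8.77 CPM of *Nr2f6* against 5.11 to 5.57. KE8 had a summed level of 315 CPM of platelet markers against 508 to 524 in the L libraries.

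For 3 genes the log2 fold change between the sides was larger in Gpr124ΔC/ΔC than in wild type by edgeR's test of the interaction. The log2 fold changes differed by 3.04 for *Rps3a2* (adjusted p = 0.00245), by 2.04 for *Cd1d2* (adjusted p = 0.0134) and by 3.61 for *Tpm3-rs7* (adjusted p = 0.0134). Within wild type the log2 fold changes were 0.88, 0.76 and 0.56, and for *Tpm3-rs7* JE6 (216 CPM) lay below KE8 (224 CPM).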

How the results depend on the processing

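No paired analysis was made, because the labels do not pair libraries of the J side with libraries of the other side. The 1703 rises became 1065 with the GC offset, 182 without genes holding a window of 80% GC, and 1034, 1028 and 819 by limma on log2(TPM + 1), log2(TPM + 0.1) and unfiltered log2(TPM + 1). The 555 falls became 889 with the offset, 88 without GC-rich genes, 1042 by DESeq2, 345 with all 12 libraries, 136 on unfiltered TPM, 1094 with no filter, 183 with no genotype term and 1462 with upper-quartile factors. Beyond a log2 fold change of 1, the 869 rises became 484 with the offset, 90 without GC-rich genes, 516 on TPM and 465 on unfiltered TPM. The 28 falls became 6 without GC-rich genes, 16 on unfiltered TPM, 14 with a mean of at least 50 counts, 122 with no filter, 17 with no genotype term and 46 with upper-quartile factors. With no fold threshold these were 1703 and 555. The interaction passed 12 genes by DESeq2. Leaving out 1 library gave 1308 to 1807 rises, 156 (without LE2) to 761 falls (without JE4), 19 (without JE3) to 51 falls beyond 1 (without KE8, and 48 without JE4), and 1 (without JE4 or LE2) to 13 genes of the interaction (without LE6, and 5 without JE3).

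List medians are given relative to all genes. With the GC offset WNT was at -0.07, Notch at -0.14, the integrated stress response at -0.06 and TGF-beta and BMP at -0.03. Without GC-rich genes WNT was at -0.10, angiogenic genes at -0.09, Notch at -0.11, immediate early genes at 0.07 and TGF-beta and BMP at -0.04. On unfiltered TPM the barrier list was at -0.36, angiogenic genes at -0.12, Notch at -0.05, proliferation at -0.09, basement membrane at -0.30, endothelial markers at -0.24, immediate early genes at 0.06, the integrated stress response at -0.18 and hypoxia at -0.17. With 1 library left out, angiogenic genes ranged from -0.06 to 0.03, Notch from -0.07 to 0.22, macrophage markers from -0.10 to 0.27, endothelial markers from -0.16 to -0.07, immediate early genes from 0.07 to 0.26, the integrated stress response from -0.15 to -0.04 and sex-linked genes from -9.40 to -0.10. The ratio of distances between sides to those within groups went from 1.25 to 1.09 without GC-rich genes. With the GC offset 9 single genes turned in direction, *Lrp6* (-0.19), *Mmp14* (-0.52), *Jag1* (-0.13), *Jag2* (-0.23), *Ephb4* (-0.00), *Igf2* (-0.49), *Ramp2* (-0.36), *Egln1* (-0.21) and *Bmpr2* (-0.64). The alternatives without GC-rich genes and with stricter filters remove genes by construction, and the offset removes the median shift of each GC bin. Removal does not cover all calls lost. Of the genes without a window of 80% GC, 294 were higher and 515 lower in the fit of all genes, against 182 and 88 when fitted alone. The causes of these and the other changes were not tested.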

Other observations

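*Ctse*, the aspartic protease cathepsin E, had 5.85 CPM in JE1, 3.16 in JE6, 3.54 in JE3 and 2.28 in JE4, and 0 in KE8, LE2 and LE5 and 0.0513 in LE6. The Gpr124-/- libraries had between 0.0668 and 0.135 CPM. Its richest window has 62.0% GC. It was low in the M libraries as well as in K and L. *Gm23935*, *Mir6236* and *Lars2* were highest in JE6 and JE3, 1 library of each genotype. *Lars2*, the mitochondrial leucyl-tRNA synthetase gene, had 7654 CPM in JE6 and 9431 in JE3 and between 1187 and 2440 in the other 6. *Ptgds*, a prostaglandin synthase of meningeal cells, had 67.3 CPM in KE8 and 114 in LE2, stood far lower in the other 6 libraries, and did not pass (adjusted p = 0.0730, edgeR).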
